A study of Mus musculus with 2 samples.

Results

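The 48 genes described here encode actin, the proteins that assemble, cut, cap and cross-link its filaments, the myosins that pull on them, and signalling proteins of cell migration. They were taken from a fixed list of actin, Arp2/3, myosin and migration genes, matched by gene identifier, and all 48 occur among the 27514 genes that the skin and lung annotations share. Their levels were measured in cells with at least 1 UMI (a unique molecular identifier, which counts a captured RNA molecule) of the T cell receptor subunits Cd3d, Cd3e or Cd3g. Such cells numbered 6400 of 6601 barcodes in skin and 8349 of 8730 in lung.

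Single cells of adult mice were profiled with 10x Single Cell 3' v2 chemistry, 1 sample per tissue. The skin sample was back skin of Foxp3-CreERT2GFP C57Bl/6 mice and the lung sample came from Foxp3-GFP C57Bl/6 mice, labelled Tachilla strain. Both tissues were digested with collagenase, and GFP+ CD45+ CD3+ CD4+ cells were sorted. Both groups thus carry a GFP reporter of Foxp3, the transcription factor of regulatory T cells (Tregs), joined in skin with CreERT2, a recombinase that tamoxifen switches on. The number of animals pooled and their age beyond adult are not given in the sources used here, and tissue, strain, library and annotation version differ together and cannot be told apart. With no replicates there was no test, and all intervals below are exact 95% intervals that cover counting error only.

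Actin filaments grow when monomers, held in reserve by thymosins and recharged by profilin, add to nuclei made by the Arp2/3 complex or by formins. Capping proteins stop growth, cofilin and its partners take old filaments apart, and myosin II contracts the network, which lets a T cell crawl, squeeze through tissue and form a contact with another cell. Vimentin is not actin but the main intermediate filament of lymphocytes and mesenchymal cells, and CCR7 is the chemokine receptor that directs T cells into lymph nodes.

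Promoter windows from RefSeq (GRCm38.p6), the 250 bases before a gene's start, were found for 44 of the 48 genes, without Actb, Cotl1, Lsp1 and Rac2. Of the 9 genes that lay at least 2-fold apart between skin and lung, 3 have a first window without an annotated exon in GENCODE M21, and these are shown because they belong to the only gene lower in skin (Evl) and to 2 of the 8 higher ones (Cap1 and Myh9). Capitals mark matches to CCNCNCCC, a GC-rich box of the Sp and KLF factors, on either strand, and in Myh9 also TATAAA on the opposite strand. The windows are Cap1 at chr4:122886077-122886326 (minus strand), Myh9 at chr15:77842176-77842425 (minus strand) and Evl at chr12:108554470-108554719 (plus strand), each written 5′ to 3′ on the gene's strand.
Cap1: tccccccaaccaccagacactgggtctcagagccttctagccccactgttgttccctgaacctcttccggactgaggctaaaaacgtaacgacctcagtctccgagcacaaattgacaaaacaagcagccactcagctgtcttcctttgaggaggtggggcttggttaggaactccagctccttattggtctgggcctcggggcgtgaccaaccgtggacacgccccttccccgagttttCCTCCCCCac
Myh9: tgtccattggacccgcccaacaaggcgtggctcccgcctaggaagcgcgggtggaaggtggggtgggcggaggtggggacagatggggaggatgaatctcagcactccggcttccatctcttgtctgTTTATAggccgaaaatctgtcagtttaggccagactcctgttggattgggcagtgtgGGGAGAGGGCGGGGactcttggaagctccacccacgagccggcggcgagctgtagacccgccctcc
Evl: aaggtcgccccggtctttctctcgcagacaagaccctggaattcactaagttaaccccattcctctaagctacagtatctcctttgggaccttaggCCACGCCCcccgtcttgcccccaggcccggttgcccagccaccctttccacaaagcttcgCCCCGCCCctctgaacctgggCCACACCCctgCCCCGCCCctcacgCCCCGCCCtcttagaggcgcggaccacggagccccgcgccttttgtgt
The Evl window holds 5 such boxes, the Myh9 window 2 that overlap each other, and the Cap1 window 1. A second Evl window holds 1. The first windows of the other genes higher in skin, not shown because they hold exon bases, range as widely. They have 13 boxes in Lcp1, 7 in Flna, 4 in Vim, 3 in Iqgap1 and 1 each in Capg and Tln1. A box of this kind occurred in 34 of the 44 genes (77.3%) and in 48.5% of 27025 genes with windows of the same length.

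The CArG box, the site of serum response factor, which controls many actin genes, occurred in the windows of Actg1, Arpc4, Myl6 and Vcl. These are 4 of the 44 genes (9.09%), against 1.62% of all genes. The sites of Actg1 (chr11:120348551-120348610, minus strand) and Vcl (chr14:20929148-20929205, plus strand) lie outside annotated exons and are shown with the CArG box in capitals.
Actg1: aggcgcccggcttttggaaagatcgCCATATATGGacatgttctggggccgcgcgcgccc
Vcl: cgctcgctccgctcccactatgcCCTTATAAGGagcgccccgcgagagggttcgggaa
The box begins 90 bases before the start of Actg1 and 227 bases before that of Vcl. TGANTCA, the AP-1 site, occurred in Ezr, Myl12a and Zyx (6.82% against 7.82% of genes), and TATAAA in Arhgdib, Cdc42, Myh9 and Vim (9.09% against 14.3%). A match of letters describes a sequence and is not a measured binding site.

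The CD3 cells had a median of 2083.5 UMIs in skin and 2384 in lung. A Foxp3 UMI was seen in 5.70% of skin and 3.62% of lung CD3 cells, with 1.49% and 1.37% among the cells without a CD3 UMI. The 7 T cell markers present in both annotations were within 2-fold between the tissues. They include Cd3d, Cd3e and Cd3g, by which the cells were picked, and Cd4, whose protein was sorted for. The likeness is therefore no independent check of the cells. A Ccr7 UMI was seen in 769 skin cells (12%) and 4688 lung cells (56.2%), or 6.83% and 36.8% after each cell was thinned to 1000 UMIs. Among the 67 skin and 292 lung cells without a CD3 UMI (medians of 1303 and 1813.5 UMIs) the Ccr7 shares were 5.97% and 25.3%, so that a cell called Ccr7- may have had its Ccr7 RNA missed and a cell called Ccr7+ may hold free RNA. At least 2 UMIs of markers of another cell type were found in 24.2% of skin and 45.9% of lung CD3 cells. The libraries share 82 barcodes, 75 of them CD3 cells in both. Ribosomal protein genes took 19% of the UMIs of skin CD3 cells and 38.2% in lung.

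In skin the 48 genes together took 6.68% of all UMIs (6.66 to 6.69) and in lung 5.68% (5.67 to 5.69). Cell by cell, the median share was 6.39% in skin, with quartiles of 5.36% and 7.68%, and 5.12% in lung, with quartiles of 4.22% and 6.31%. The distributions of the tissues overlapped widely. Once mitochondrial and ribosomal protein genes were taken out of the totals, the order turned, with 8.58% in skin and 9.59% in lung. Cells without a CD3 UMI had lower shares, 5% in skin and 3.45% in lung.

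**Figure D1:**
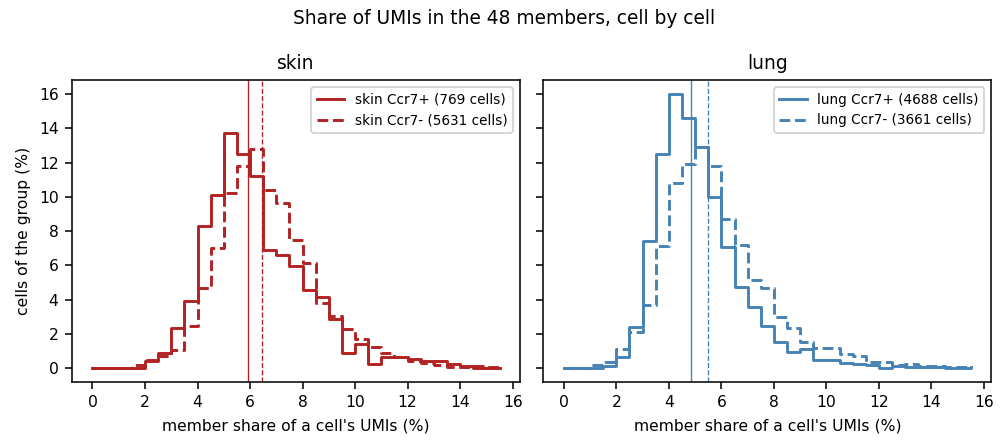
Share of a cell's UMIs that fall in the 48 genes (x axis, percent) against the percent of cells of the group (y axis), for Ccr7+ cells (solid) and Ccr7- cells (dashed) of skin (left) and lung (right). Vertical lines mark the medians, 5.94% and 6.44% in skin and 4.86% and 5.49% in lung, and in both tissues the Ccr7+ curve lies to the left.

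The first comparison set skin against lung. Skin cells held more RNA of vimentin, of the capping protein Capg and of the scaffold Iqgap1, whereas Evl, which speeds filament growth, was the only gene at least 2-fold lower in skin. Of the 48 genes, 47 reached 20 CPM (UMIs scaled to the same library total) in either tissue. By the rule of a 2-fold difference on the scale of log2(CPM + 5), 8 were higher in skin (Cap1, Capg, Lcp1, Flna, Iqgap1, Myh9, Tln1 and Vim), where 14.9% of all 5687 genes tested were higher, and 1 was lower, where 5.05% of all genes were. The other 38 lay within 2-fold. The median log2 ratio of the 47 genes was 0.53, beside 0.36 for all genes tested, and 29 of them lay above that all-gene median. As a group they lay near the median of all genes, and the 2-fold differences were those of the 9 genes named.

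**Figure D2:**
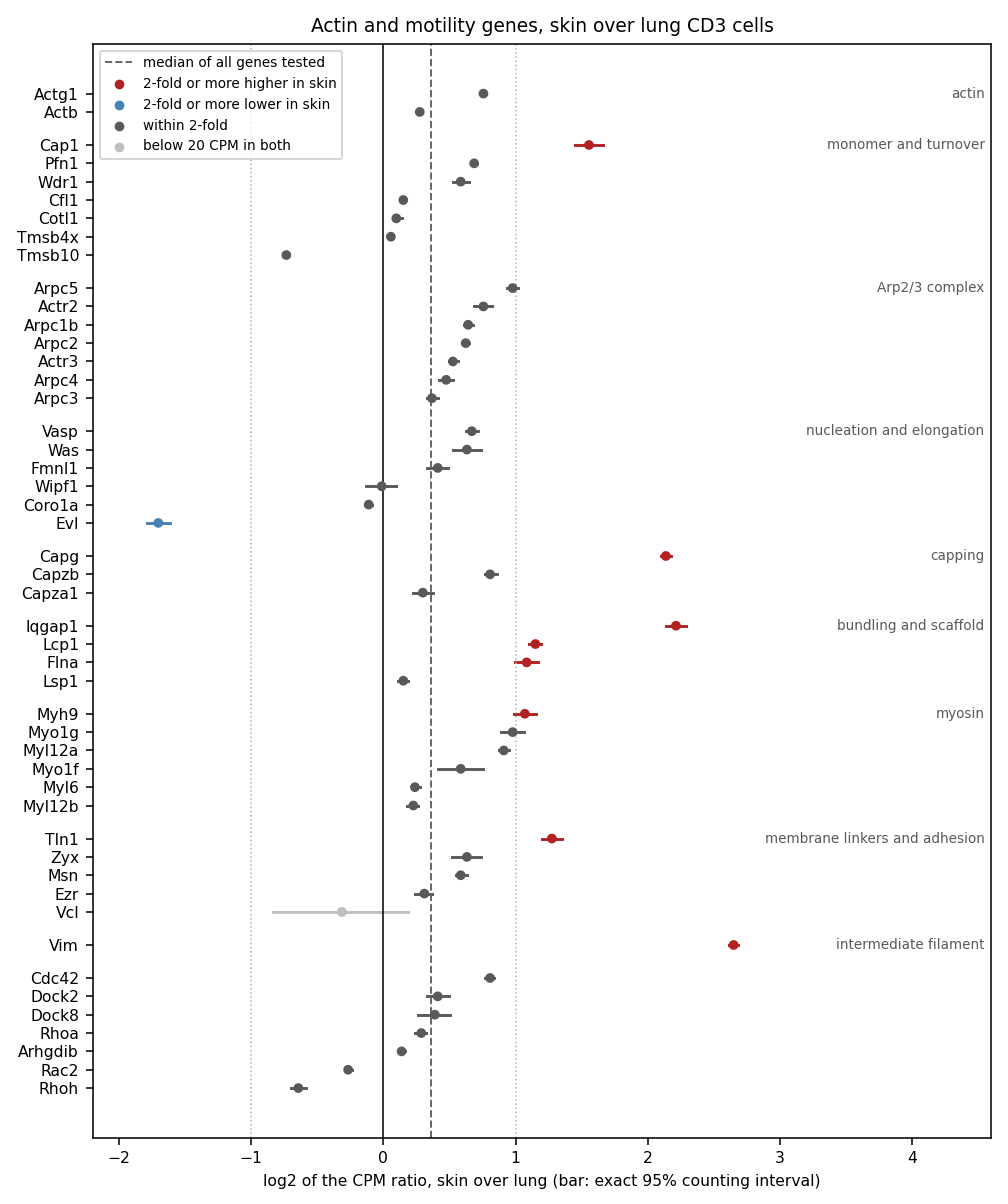
Log2 of the CPM ratio of skin over lung for the 48 genes (x axis), grouped by role (y axis, the last group without a label), with bars for the exact 95% counting interval; the dashed line is the median of all genes tested (0.36) and dotted lines mark 2-fold. Vim, Iqgap1 and Capg lie farthest right and Evl farthest left, and most other genes lie between the zero line and 2-fold higher in skin.

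Vim (vimentin, chr2:13573927-13582826, plus strand, GRCm38) differed most. Its level was 2525 CPM in skin and 402 CPM in lung, a ratio of 6.28 (6.14 to 6.42). At least 1 Vim UMI was found in 93% of skin CD3 cells and 37.4% of lung CD3 cells, and in 82.3% and 19.6% after thinning to 1000 UMIs. The cells without a CD3 UMI had Vim in 91.0% (skin) and 49.3% (lung), or 79.1% (67.4 to 88.1) and 40.5% thinned. The skin CD3 cells were thus within the interval of the other skin cells, and the lung CD3 cells were below the other lung cells. Cells without a CD3 UMI may be T cells whose CD3 RNA was missed or cells of other types. The comparison therefore cannot decide whether T cells express Vim, and neither share is read as such. Among cells of over 6000 UMIs the log2 ratio was 1.11, against 2.63 over all cells and 3.64 among cells of 1500 to 3000 UMIs.

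Among the genes of capping, Capg, a gelsolin family protein that caps filament ends without cutting them (chr6:72544391-72562983, plus strand), stood at 1448 CPM in skin and 329 CPM in lung, 4.40-fold higher (4.29 to 4.51). The obligate capping protein subunits behaved less strongly. Capzb was at 568 and 325 CPM, a log2 ratio of 0.80, and Capza1 at 167 and 135 CPM, a log2 ratio of 0.29. Capg UMIs were seen in 90.6% of skin and 44.8% of lung cells (73.6% and 22.9% thinned), against 76.1% and 18.8% of cells without a CD3 UMI. After thinning the latter shares were 67.2% (54.6 to 78.2) and 10.5% (6.94 to 15.2), so the CD3 cells exceeded the other cells beyond counting error in lung and not in skin.

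Bundling and scaffold genes had 3 of 4 members higher in skin and a median log2 ratio of 1.08. Iqgap1, a scaffold that ties Rac1 and Cdc42 signalling to filaments (chr7:80711583-80825974, minus strand), was at 392 CPM in skin and 84.5 CPM in lung, a ratio of 4.64 (4.41 to 4.88). Lcp1, the leukocyte bundling protein L-plastin, was at 600.2 and 271 CPM, and Flna, the cross-linker filamin A, at 149 and 70.2 CPM. Their ratios were 2.22 (2.15 to 2.29) and 2.12 (1.99 to 2.25). Lsp1, a leukocyte filament-binding protein, was at 659 CPM in skin and 595 in lung, with a log2 ratio of 0.15. Iqgap1 was detected in 56.2% of skin cells and in 19.1% of lung cells, and in 41.8% and 24.7% of the cells without a CD3 UMI. After thinning the skin shares were 32.6% and 32.8% and the lung shares 7.49% and 14.3%, so in neither tissue did the CD3 cells exceed the other cells at matched depth.

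Both actin genes lay within 2-fold. Actb (beta-actin) was at 9049 CPM in skin and 7478 CPM in lung, a ratio of 1.21 (1.20 to 1.22), and Actg1 (gamma-actin) at 4332 and 2564 CPM, a ratio of 1.69 (1.67 to 1.71). The share of Actg1 among the UMIs of both actin genes, which does not depend on how libraries are scaled, was 32.4% in skin (32.2 to 32.6) and 25.5% in lung (25.4 to 25.7). Among cells under 1500 UMIs, however, Actb was at 12740 CPM in skin and 6345 in lung and Actg1 at 3579 and 1685, so that both lay farther apart there. The Actg1 share was nearly level between the tissues in these cells. They held 5817 Actg1 and 20703 Actb UMIs in skin, and 1390 and 5233 in lung. The Actg1 share and the other shares within pairs of related genes given below were chosen after the values were seen.

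Genes of the monomer pool and of turnover had a median log2 ratio of 0.14, below that of all genes. Cap1, which recycles monomers together with cofilin (chr4:122859047-122886056, minus strand), was the only one of 7 at least 2-fold higher in skin, with 136 and 46.4 CPM and a ratio of 2.94 (2.73 to 3.16). Pfn1 (profilin) was at 5069 and 3141 CPM, a log2 ratio of 0.69. Wdr1, a helper of cofilin, was at 0.57 on the log2 scale, and Cfl1 (cofilin) and Cotl1 lay nearer to 0, at 0.14 and 0.10. Tmsb4x, the main thymosin, was at 18625 CPM in skin and 17973 CPM in lung, whereas Tmsb10 was at 5477 and 9117 CPM, 1.66-fold lower in skin (1.65 to 1.68). Tmsb10 made up 22.7% (22.6 to 22.9) of the UMIs of these thymosin genes in skin and 33.7% (33.5 to 33.8) in lung. The near-identical gene model Gm9844 had 380 UMIs in the skin matrix and 1111 in the lung matrix, few beside the 87690 and 216468 of Tmsb10. Reads that fit both models may be missing from either count, and their effect on Tmsb10 was not tested.

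All 7 subunits of the Arp2/3 complex, which starts branches on existing filaments, lay within 2-fold, from a log2 ratio of 0.37 for Arpc3 to 0.97 for Arpc5. Arpc5, just inside the threshold, was at 618 and 314 CPM. Arpc2, the subunit with the highest level, was at 1024 and 666 CPM. Together the 7 took 0.428% of UMIs in skin and 0.280% in lung. Their median log2 ratio was 0.62, none passed 2-fold, and with median-of-ratios size factors Arpc3 was at −0.04. Reads of Arpc4 overlap those of Ttll3, which had 74 and 110 UMIs.

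Nucleation and elongation genes split. Evl, an Ena/VASP protein that keeps filament ends growing (chr12:108554720-108688516, plus strand), was at 84.3 CPM in skin (79.9 to 89.0) and 275 CPM in lung (268 to 282), 3.26-fold lower in skin (3.07 to 3.46). Its relative Vasp was at 511 and 321 CPM, a log2 ratio of 0.66. Evl therefore made up 14.2% (13.5 to 14.9) of the UMIs of this pair in skin and 46.1% (45.3 to 47) in lung. Evl was seen in 16.3% of skin and 49.0% of lung cells, and in 2.99% and 23.3% of cells without a CD3 UMI. After thinning the CD3 cells stood at 8.27% in skin and 23.9% in lung. The other cells stood at 2.99% (0.364 to 10.4) and 15.2% (10.9 to 20.4). The CD3 cells thus exceeded the other cells beyond counting error in lung and not in skin. Was, the activator of Arp2/3 in blood cells, had a log2 ratio of 0.59, its partner Wipf1 −0.01, the formin Fmnl1 0.40 and Coro1a (coronin) −0.11.

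Among the myosins, Myh9, the heavy chain of non-muscle myosin II (chr15:77760587-77842175, minus strand), was the only one of 6 past 2-fold, at 168 and 79.6 CPM (2.10-fold, 1.98 to 2.23). The unconventional Myo1g was at 160 and 81.5 CPM, a log2 ratio of 0.94. Among the light chains, Myl12a came close to 2-fold, at 935 and 497 CPM. Myl6, at 1289 and 1088 CPM, and Myl12b, at 420.4 and 361 CPM, differed less. Myl12a and Myl12b are 98.7% identical near their 3' ends, so how reads were divided between them is uncertain. Myo1f, low in both, was at 34.3 CPM in skin and 22.8 CPM in lung.

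Of the genes that link filaments to the membrane, Tln1 (talin, which opens integrins) was at 239 and 98.7 CPM, 2.42-fold higher in skin (2.30 to 2.55). Msn (moesin), the member of this role with the highest level, was at 512 and 340.2 CPM, Zyx (zyxin) at 82.0 and 53.0 CPM, and Ezr (ezrin) at 255 and 206 CPM. These 3 lay within 2-fold. Vcl (vinculin) was at 3.22 and 4.01 CPM and was not tested.

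Cdc42, a switch of cell polarity, was at 942 and 539.8 CPM, a log2 ratio of 0.80. Rhoh, which acts in T cell receptor signalling, was at 238 and 371 CPM, a log2 ratio of −0.63. Rac2, the blood cell Rac, was at 1196 CPM in skin and 1439 CPM in lung. Rhoh and Rac2 were, with Evl, Tmsb10 and Coro1a, the 5 genes whose interval lay below a ratio of 1, against 41 whose interval lay above 1. Intervals were not counted over all genes, so these numbers have no background beside them. Dock2 and Dock8, which switch on Rac and Cdc42, had log2 ratios of 0.40 and 0.35, and Dock8 made up 29.2% and 29.6% of their joint UMIs, with overlapping intervals.

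These directions rest in part on scaling. With median-of-ratios size factors the median log2 ratio of all genes moved from 0.36 to −0.04, and the share of all calls that were higher in skin moved from 74.8% to 48.5%. With this scaling 28 of the 47 genes had a positive log2 ratio in place of 41, and Actb (−0.13), Tmsb4x (−0.36) and Ezr (−0.10) turned negative. Cap1, Capg, Iqgap1 and Vim stayed at least 2-fold higher, where 8.53% of all genes were. Tmsb10 (−1.14), Evl (−2.04) and Rhoh (−1.04) were at least 2-fold lower, where 9.04% of all genes were. Totals free of ribosomal protein and mitochondrial genes named the same 7 genes, beside 8.69% of all genes higher and 9.09% lower. Lcp1, Flna, Myh9 and Tln1, at 0.73, 0.64, 0.64 and 0.84, lost their call under the size factors.

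Other cell types and cell states moved with tissue. The 6 fibroblast markers tested were all higher in skin, with a summed level over the 7 listed of 1781 CPM against 45.2 in lung. Lung epithelial markers summed to 69.5 CPM in skin and 3756 in lung. Of the 6 tested, 5 were lower and 1 was higher in skin. Of the 8 listed, 5 (Sftpc, Sftpa1, Sftpb, Scgb1a1 and Scgb3a2) were at 0 in skin. When cells with at least 2 UMIs of such markers were left out, fibroblast markers summed to 99.0 and 2.13 CPM and the log2 ratio of Vim was 3.21, of Capg 2.34, of Iqgap1 2.40 and of Evl −1.70. Early response genes, which respond to digestion as well as to stimulation, had a median share of 2.21% per cell in skin and 0.641% in lung. In the cells below their library's median of that share, Vim was at 2.33, Capg at 2.01, and Evl at −1.42. Among cells with a Foxp3 UMI these 3 values were 2.47, 2.01 and −1.61.

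The tissues also differed in their mix of Ccr7 classes, so skin and lung were compared within each class. In Ccr7- cells (5631 in skin, 3661 in lung) Cap1, Capg, Iqgap1, Myh9, Tln1 and Vim were at least 2-fold higher in skin, 6 genes where 13.9% of all genes were, and Evl was lower, where 5.49% were. With median-of-ratios size factors Capg, Iqgap1 and Vim kept the call in these cells, and Cap1, at 0.95, did not. Vim stood at 2639 and 479 CPM (5.51-fold, 5.34 to 5.69), and Evl at 76.0 and 253 CPM (3.33-fold lower, 3.09 to 3.58). In Ccr7+ cells, 6 genes were again higher (Cap1, Capg, Lcp1, Iqgap1, Tln1 and Vim; 14.8% of all genes) and Evl was lower (3.68% of all genes). Vim was at 1900.0 and 350.1 CPM there, 5.43-fold higher in skin (5.21 to 5.65). Evl was at 130.0 and 290.3 CPM, 2.23-fold lower (1.99 to 2.51), close to the threshold, and under 5 of the alternative settings it lay within 2-fold. The medians were 0.39 in Ccr7- and 0.53 in Ccr7+ cells, beside 0.32 and 0.38 for all genes. Markers of T cell state moved with tissue too, with effector and tissue Treg markers at 3630 CPM in skin and 197 in lung and naive or central T cell markers at 909 and 4046.5 CPM. Of the latter, 6 of 7 were lower in skin, as Evl was, and their part in the Evl value was not tested.

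**Figure D3:**
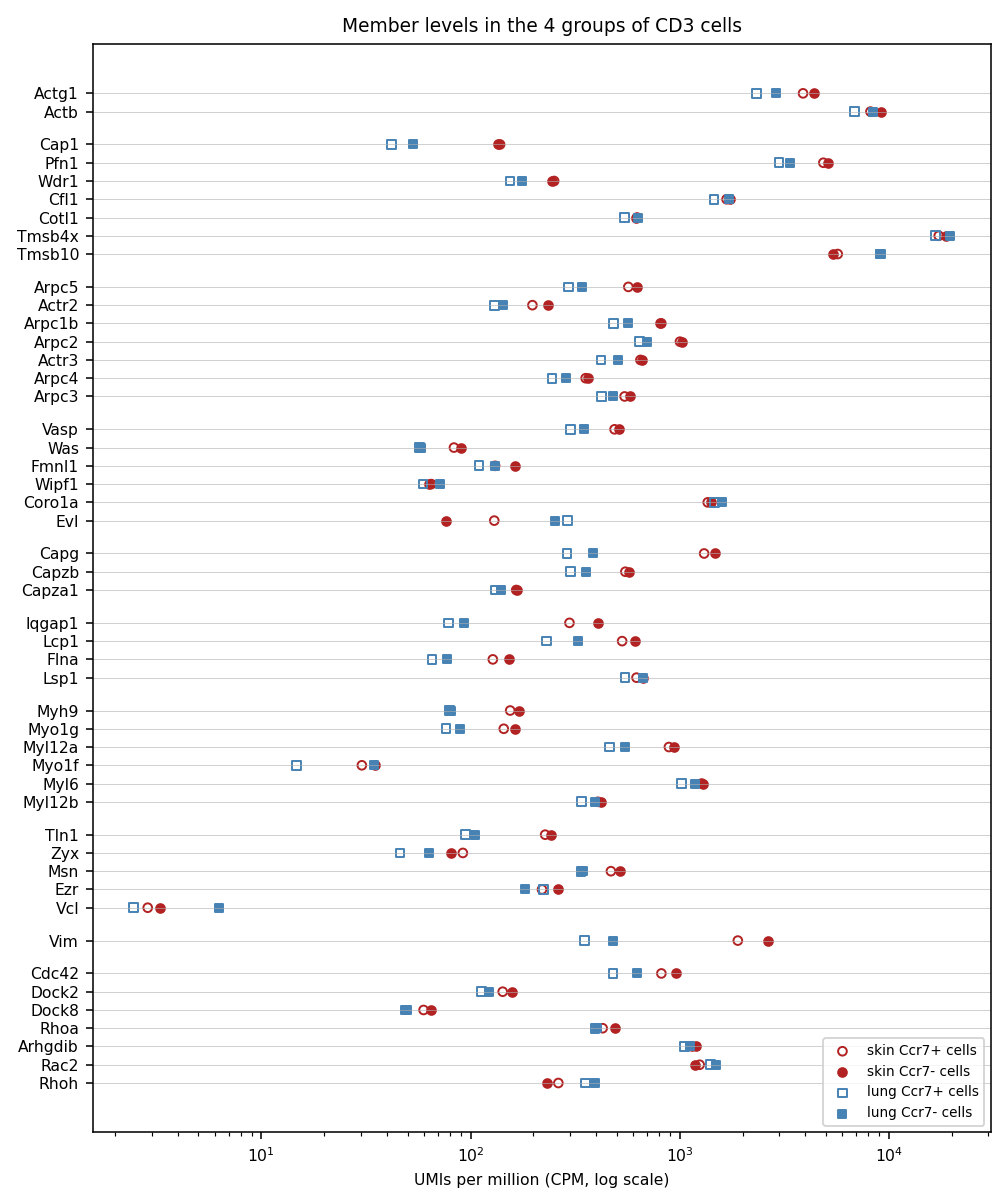
Level of each of the 48 genes (CPM, log scale) in Ccr7+ (open) and Ccr7- (filled) cells of skin (circles) and lung (squares). For Vim both skin symbols (1900.0 and 2639 CPM) lie right of both lung symbols (350.1 and 479 CPM), and for Evl both lung symbols lie right of both skin symbols.

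The second comparison set Ccr7+ against Ccr7- cells of the same tissue, where a gene was called at a 1.5-fold difference. In skin, Evl was the only gene called, at 130.0 CPM in Ccr7+ and 76.0 CPM in Ccr7- cells, 1.71-fold higher (1.5 to 1.94), where 1.87% of all genes were higher. No gene was called lower, where 1.41% of all genes were, and 46 of 47 lay within 1.5-fold. The median was −0.08, beside −0.02 for all genes, and 35 of the 47 genes lay below that all-gene median. Counting intervals lay below a ratio of 1 for 22 genes and spanned 1 for 22. With totals free of ribosomal protein and mitochondrial genes 25 log2 ratios were negative and 22 positive. The lowest ratios were those of Vim, at 1900.0 and 2639 CPM (0.720, 0.698 to 0.742), and Iqgap1, at 297.6 and 409 CPM (0.727, 0.672 to 0.786). Next came Fmnl1 at −0.30 and Actr2, Ezr, Cdc42 and Flna, each at −0.24 on the log2 scale. On the positive side after Evl were Zyx (0.19), Rhoh (0.17), Rac2 (0.07) and Tmsb10 (0.07).

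In lung, 43 of the 47 genes had a negative log2 ratio. Myo1f, a motor of the myosin I class, was the only gene called, at 14.7 CPM in Ccr7+ and 34.7 CPM in Ccr7- cells, 2.36-fold lower (1.98 to 2.83), where 2.82% of all genes were lower. No gene was called higher, where 0.457% of all genes were. The median was −0.21, beside −0.05 for all genes, and 39 of 47 lay below the latter. Lcp1 was at 232 and 328 CPM (−0.49), Vim at 350.1 and 479 CPM (−0.45), Zyx at 46.0 and 63.3 CPM (−0.42), and Capg at 289.7 and 387 CPM (−0.41). These 4 came close to 1.5-fold without reaching it. Ezr at 0.28 and Evl at 0.20 had the only intervals above a ratio of 1, with 223 and 183 CPM and 290.3 and 253 CPM. Intervals below 1 numbered 39 in lung and 22 in skin, and such intervals were not counted over all genes in either tissue. The smaller class held 3661 cells in lung and 769 in skin, and the part of class size in these counts was not tested.

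Markers of other cells moved with the lung classes. Macrophage and dendritic cell markers summed to 171 CPM in lung Ccr7+ and 737 CPM in Ccr7- cells, with Clec9a and Cd207 at 0 in both, neutrophil and mast cell markers to 3.24 and 145 CPM, lung epithelial markers to 1242 and 7420 CPM, and endothelial markers to 206 and 377 CPM. Without cells holding 2 or more UMIs of other types the log2 ratio of Myo1f was −1.23. In cells of 1500 to 3000 UMIs (−1.29) and after thinning (−1.17) Myo1f was under 20 CPM in both classes, so it was not called there. In skin, early response genes summed to 18314 CPM in Ccr7+ and 24029 CPM in Ccr7- cells, effector markers to 2317 and 3871 CPM, naive or central markers to 882 and 914 CPM (3 of 7 higher in Ccr7+ cells, 0 lower), and macrophage and dendritic cell markers to 299 and 124 CPM. Their part in the Evl and Vim values of the skin classes was not tested.

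Shares within pairs of related genes were also set side by side for the Ccr7 classes. Actg1 made up 32.3% of actin UMIs in skin Ccr7+ and 32.4% in Ccr7- cells, and 25.5% and 25.6% in lung. Evl took 21% (19 to 23.1) of the UMIs of Evl and Vasp in skin Ccr7+ and 12.9% (12.1 to 13.6) in skin Ccr7- cells, and 49.1% (48 to 50.2) and 41.9% (40.7 to 43.2) in lung. The Ccr7+ class was thus higher in Evl share in both tissues. Tmsb10 took 24.7% and 22.4% of thymosin UMIs in skin Ccr7+ and Ccr7- cells and 35.2% and 31.6% in lung. Myo1f took 16.1% (14.1 to 18.3) of the UMIs of Myo1f and Myo1g in lung Ccr7+ and 28.1% (25.5 to 30.7) in lung Ccr7- cells, with 17.3% and 17.6% in skin. For Myo1f the classes of lung thus lay farther apart than skin and lung did within the Ccr7+ class. Within the Ccr7- class, skin (17.6%) and lung (28.1%) lay nearly as far apart as the lung classes did. Ezr took 39.7% and 34.7% of the UMIs of Ezr and Msn in lung Ccr7+ and Ccr7- cells and 31.9% and 33.5% in skin.

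Levels also varied with the depth of the cell, a split made after the data were seen. In lung, 21 of the 48 genes were higher in each deeper group of cells (under 1500, 1500 to 3000, over 3000 and up to 6000, and over 6000 UMIs), whereas 2 were in skin. Vim in lung went from 172 to 195, 433 and 1156 CPM, and Actg1 from 1685 to 1878, 2826 and 4685 CPM. Myo1f went from 8.49 to 9.23, 29.4 and 60.6 CPM. Evl, Msn, Rhoh and Tmsb10 took the opposite course in lung, Evl from 338 to 314, 262 and 146 CPM. In skin, by contrast, Vim was at 2269, 2483, 2690 and 2505 CPM, with no such steps, while 8 genes (Actr2, Dock2, Dock8, Iqgap1, Msn, Myh9, Rhoh and Was) were lower in each deeper group of skin cells. The deepest cells made up 387 of 8349 in lung and 209 of 6400 in skin. They also held the most of other types, with lung epithelial markers at 557 CPM in lung cells of 1500 to 3000 UMIs and 20730 in those over 6000, fibroblast markers at 273 and 11750 CPM in skin, and Mki67 or Top2a in 1.57% and 27.9% of the lung cells. The share of ribosomal protein genes in the lung groups was 34.3%, 40.4%, 38.7% and 29.8%, from the shallowest to the deepest. The part of all these in the courses was not tested. Such courses were not counted over all genes, so the numbers of genes given here are not read as particular to the actin genes.

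**Figure D4:**
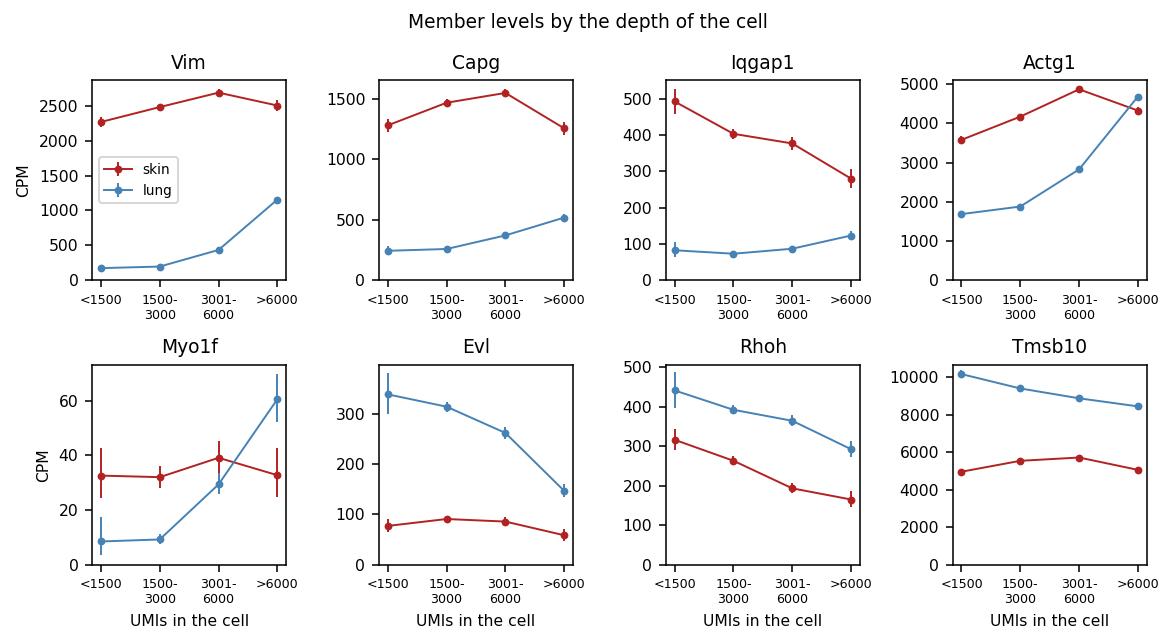
Level (CPM, with exact 95% counting intervals) of 8 of the genes in 4 groups of CD3 cells by the UMIs in the cell, in skin and lung. In lung Vim, Capg, Actg1 and Myo1f are highest in cells over 6000 UMIs and Evl, Rhoh and Tmsb10 lowest, whereas Vim in skin stays between 2269 and 2690 CPM.

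By depth, the 2-fold rule found 12 of these genes higher in skin among cells under 1500 UMIs, 15 in those of 1500 to 3000, 7 in the next group and 3 (Capg, Iqgap1 and Vim) in cells over 6000. The share of all genes that were higher was 17.7%, 18%, 15.4% and 13.7% in these groups. Evl was lower in skin in all 4, with log2 ratios of −2.07, −1.74, −1.56 and −1.26.

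A wider set of 110 actin genes in 7 lists, chosen with earlier results of these data known, had 87 genes tested between the tissues, of which 16 were higher in skin, 3 lower and 68 within 2-fold. The median was 0.41, beside 0.36 for all genes, of which 14.9% were higher and 5.05% lower, so the set lay near the background. Among Arp2/3 and WAVE genes 3 of 11 were higher, led by Snx9, a membrane-bending protein, at 54.5 and 6.53 CPM (8.35-fold, 7.02 to 9.98), and Cyfip1, a WAVE subunit, at 43.8 and 10.8 CPM, while Brk1 (−0.02) and Arpc1a (−0.25) had the lowest log2 ratios. Of 14 formin and turnover genes, 3 were higher, among them Diaph1, an unbranched filament nucleator, at 172 and 50.3 CPM (3.42-fold, 3.19 to 3.66), and Diaph2 at 28.2 and 5.76 CPM. Cfl2 (−0.71) and Twf2 (−0.31) were lowest. Capping, cross-linking and tropomyosin genes had 5 higher and 1 lower of 18. Marcksl1 was at 80.3 and 11.2 CPM (7.18-fold, 6.28 to 8.23) and Gsn (gelsolin) at 456 and 137 CPM, while Actn1, the cross-linker alpha-actinin 1, was at 9.73 CPM in skin and 85.3 CPM in lung, 8.76-fold lower in skin (7.43 to 10.4). Actn1 and Evl were thus both low in skin, and Actn1 was also higher in Ccr7+ than in Ccr7- skin cells, by 1.52 on the log2 scale.

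Of 5 myosin genes tested, Myo1e (29.2 and 7.51 CPM) and the myosin-activating kinase Rock1 (163 and 69.9 CPM) were higher in skin. Of 16 adhesion genes only Lpxn (leupaxin) was higher, at 137 and 58.9 CPM. Of the 3 SRF and MRTF factors only Mkl1 was tested, at 21.4 and 22.1 CPM. Between Ccr7 classes, 2 of 84 wider genes were higher and 1 lower in skin Ccr7+ cells, and 0 of 78 were higher and 3 lower in lung. Over all genes the shares were 1.87% and 1.41% in skin and 0.457% and 2.82% in lung.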

How the data were processed

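The deposited matrices hold UMI counts per gene and cell barcode, made by the authors with Cell Ranger on mm10 per the submitters' processing notes (software 3.0.2 per the file headers of lung; other versions are not given in the sources used here). No normalization was applied to these counts. A second lung matrix (lane1) holds 8626 barcodes, all in the first, with 92.1% of their UMIs, and served only as an alternative. Barcodes with under 200 genes (1 in skin) or over 10% mitochondrial UMIs (134 in skin, 89 in lung) were removed. Scrublet (scanpy 1.11.5) called 0.0309% of cells in skin and 0% in lung. The caller has not worked at such shares, so doublets were kept, and an alternative removed the 6% with the highest scores.

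Counts were summed per group of cells over the 27514 identifiers in both annotations (27998 in skin, 31053 in lung) and scaled to CPM, with 16190303 UMIs in the skin and 24293511 in the lung matrix. Where Ccr7 classes enter, Ccr7 was left out of the totals. Ratios were taken as log2(CPM + 5) for genes with at least 20 CPM in either group, and folds with intervals are plain CPM ratios. Levels have exact Poisson, ratios exact binomial and shares of cells Clopper-Pearson intervals of 95%. Genes called are at least 2-fold apart between tissues and 1.5-fold between Ccr7 classes. Results were recomputed under 17 alternative settings and, chosen after seeing the data, 3 more by depth. Genes named in full are the 10 at each end of a comparison, the highest of each role, and up to 2 at each end of a wider list. The results of a wider list and of a group of members are not reported here, though the totals over all wider lists include that list. The members and lists were chosen with earlier results of these data known. Of the listed marker genes, 6 (Trac, Trbc2, Trdc, Tcrg-C1, Trdv4 and Ighm) are not in both annotations. Gene positions are from GENCODE M21 (GRCm38), promoters from RefSeq, and near-identical genes were sought in the last 600 bases of GENCODE transcripts. The calculations (Python 3.11.15, numpy 2.4.6, scipy 1.17.1, pandas 2.3.3, matplotlib 3.10.9) were tested on simulated data.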

Additional observations from a re-analysis of the deposited data

Results flagged for a closer look

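For 3 genes the ratio of Ccr7+ over Ccr7- cells had its counting interval above 1 in one tissue and below 1 in the other. For Ezr, which links filaments to the membrane, it was 0.842 (0.767 to 0.922) in skin and 1.22 (1.15 to 1.29) in lung, a difference of −0.52 on the log2 scale, skin minus lung, and both signs were kept in 14 of 15 alternatives. For Rhoh it was 1.13 (1.04 to 1.23) and 0.896 (0.858 to 0.935), a difference of 0.33, kept in 15 of 15. For Rac2 it was 1.05 (1.01 to 1.09) and 0.948 (0.927 to 0.969), a difference of 0.15, kept in 13 of 15. With totals free of mitochondrial and ribosomal protein genes Rac2 in lung was at 0.01. With 1 sample per tissue the difference was not tested for any of them.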

How the results depend on the processing

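No paired analysis was possible because there was 1 sample per tissue, so the groups share only replicate number 1. No alternative reversed a call. Of the values that answer a comparison, 130 kept their size under an alternative and 42 moved. Values held to have kept their size include 12 genes higher in skin than in lung in place of 8. That count arose without cells with markers of other types, and in cells under 1500 UMIs, where 17.4% and 17.7% of all genes were higher. Apart from a changed threshold, the cause of a move was not tested. Between skin and lung 8 genes were higher and 1 lower, and shares of all genes are given in brackets (14.9% and 5.05%). Median-of-ratios scaling gave 4 higher and 3 lower (8.53% and 9.04%). Totals free of ribosomal protein and mitochondrial genes gave the same counts (8.69% and 9.09%). A 1.5-fold threshold gave 20 and 3 (33.8% and 9.02%). Cells of 1500 to 3000 UMIs gave 15 higher (18%), cells over 6000 UMIs 3 higher (13.7%) and cells under 1500 UMIs 2 lower (7.35%). The last 2 settings were chosen after seeing the data. The median log2 ratio ranged from 0.04 to 0.69 over 19 alternatives.

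Shares of all genes are again in brackets. Within Ccr7- cells 6 genes were higher and 1 lower (13.9% and 5.49%). Both scalings gave 3 and 3 (8.27% and 8.85% with size factors, 8.24% and 9.17% with the reduced totals). A 1.5-fold threshold gave 18 and 3 (31.6% and 9.68%) and Foxp3 cells 10 and 2 (20.2% and 6.16%). Cells of 1500 to 3000 UMIs gave 12 higher (17.5%) and thinning 10 higher (16.5%). Within Ccr7+ cells 6 genes were higher and 1 lower (14.8% and 3.68%). A 1.5-fold threshold gave 22 and 2 (34.7% and 8.4%) and Foxp3 cells 11 higher (20.5%). Cells of 1500 to 3000 UMIs gave 15 higher (17.9%), thinning 10 (17.9%), and leaving out cells with other markers 14 (16.7%). Both scalings gave 2 lower (8.58% with size factors and 7.93% with the reduced totals). With cells of 1500 to 3000 UMIs (4.19%), thinning (4.61%) and without cells with other markers (4.05%), 0 were lower. The same held with the lower early response share (3.47%) and with Ccr7 classes from 2 UMIs (3.92%).

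Between Ccr7 classes of skin (1 higher, 0 lower), a 2-fold threshold gave 0 higher, and Foxp3 cells (52 of them Ccr7+) 2 higher and 2 lower (Flna and Myo1f), where 13.6% of all genes were higher and 14.7% lower. Thinning gave 1 lower (Vim), where 8.08% of all genes were lower. Ccr7 from 2 UMIs gave 3 lower (Iqgap1, Myo1f and Vim), where 7.7% of all genes were. In lung (0 higher, 1 lower), Foxp3 cells gave 1 higher (Was) and 2 lower, where 11.5% and 11.3% of all genes were. A floor of 5 CPM and no floor gave 2 lower each (Vcl added), where 4.03% and 2.23% of all genes were. Ccr7 from 2 UMIs gave 2 lower (Lcp1 added), where 3.68% were. Thinning and cells of 1500 to 3000 UMIs kept the count of 1 (2.54% and 1.6% of all genes), but the gene was Vim. Medians ranged from −0.20 to −0.00 in skin and from −0.27 to −0.12 in lung.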
